A study of Mus musculus with 22 samples.

Results

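Adrenomedullin (Adm) and 4 genes of its receptor complexes, Calcrl, Ramp1, Ramp2 and Ramp3, were examined in 22 mouse lymphoma libraries from 15 mice. The 5 genes were taken by name from the 52636 genes of the count table, and their level was expressed as CPM, the counts scaled to a library total of 1000000. Adm was chosen by its CPM, which showed the largest increase in tumours of the MCL-like immunophenotype, so its difference between MCL-like and non-MCL tumours is a description here and carries no test. The question addressed was whether the receptor genes, and genes that respond to low oxygen, moved with it. MCL stands for mantle cell lymphoma, and MCL-like and non-MCL are the submitters' immunophenotype labels.

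All mice were of a mixed 129/C57Bl6 strain, carried p53 fl/fl alleles and Mb1Cre tg/+, and received no treatment according to the labels; ages were not given. Mb1 drives Cre in the B lineage, so p53 loss was a feature of every group, the comparison groups included. MCL-like primaries came from 4 mice with the cyclin D2 transgene R26-Ccnd2 tg/tg, and Ccnd2 non-MCL primaries came from 3 mice of that same genotype. The p53-only non-MCL primaries came from 6 mice without the transgene, and 1 of these mice gave 2 libraries (replicates 2 and 5). MCL-like transplants were 6 libraries from the spleens of NSG mice, immunodeficient hosts without mature T, B and NK cells of their own, which had received cells of 4 MCL-like mice. Ccnd2 non-MCL transplants were 2 libraries in NSG hosts, both from 1 donor mouse. The titles of the 6 MCL-like transplants say non-MCL while their immunophenotype field says MCL-like, and that field was followed.

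Library totals ran from 2693399 to 8146613 counts. All 9 B lineage markers, among them Pax5 and Cd79b, were detected in every library, with a summed level of 3871 to 8081 CPM in MCL-like primaries, 4410 to 6272 CPM in Ccnd2 non-MCL primaries and 1733 to 6144 CPM in p53-only primaries. Of the MCL-like primaries 3 were taken from the spleen and replicate 1 from a mesenteric tumour, while the non-MCL primaries also included mediastinal tumours and 1 labelled thymoma. Tumour site therefore differed between MCL-like and non-MCL primaries, and its part in the differences below was not tested. The names of 5 libraries, all of them non-MCL primaries, begin with oTP, a prefix that the labels do not explain. These libraries are Ccnd2 non-MCL replicate 3 and p53-only replicates 4 to 7.

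Adrenomedullin is a secreted peptide that widens blood vessels and is needed for the growth of blood and lymphatic vessels in the mouse embryo. It acts on Calcrl, a receptor coupled to the stimulatory G protein and cyclic AMP, and a small membrane partner decides which peptide Calcrl answers to: with Ramp2 or Ramp3 it forms adrenomedullin receptors, and with Ramp1 it forms the receptor of calcitonin gene-related peptide (CGRP). Transcription of Adm is a classical target of the hypoxia-inducible factors (HIF), which bind short hypoxia response elements.

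Adm lies at chr7:110627661-110629820 on the plus strand of GRCm38. The 250 bases before its RefSeq start (GRCm38.p6, chr7:110627407-110627656, plus strand) are printed because they bear on the hypoxia question. Capitals mark the letters GCGTG, a core of hypoxia response elements, here on the opposite strand (read as CACGC), and the letters TATAA of a TATA box core on the given strand.
Adm: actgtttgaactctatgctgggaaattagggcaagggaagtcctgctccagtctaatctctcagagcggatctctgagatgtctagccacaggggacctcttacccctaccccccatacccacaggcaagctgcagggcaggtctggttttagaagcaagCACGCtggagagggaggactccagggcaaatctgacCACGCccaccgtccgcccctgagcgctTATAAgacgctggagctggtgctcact
Ramp1: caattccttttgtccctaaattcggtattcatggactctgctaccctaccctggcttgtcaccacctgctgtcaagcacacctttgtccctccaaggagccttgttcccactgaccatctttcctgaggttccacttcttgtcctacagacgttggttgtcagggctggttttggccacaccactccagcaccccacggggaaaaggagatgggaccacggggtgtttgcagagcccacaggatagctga
The Ramp1 window (GRCm38.p6, chr1:91179572-91179821, plus strand) is shown beside it because none of the 3 motifs searched, ACGTG and GCGTG on both strands and TATAA on the given strand, occurred in it. In the Adm window GCGTG began 90 and 54 bases before the start and TATAA began 27 bases before it. Among 32851 RefSeq promoters of the same length, 38.6% held ACGTG or GCGTG, 16.7% held 2 or more such cores and 16% held TATAA. Promoters were matched for 4 of the 5 genes; that of Ramp3 held 2 GCGTG cores and that of Calcrl held none. A match of letters is a description and not a binding site. Of 35 genes on the hypoxia target lists with a promoter in the table, 31 held at least 1 of these cores in any of their listed promoters. The 38.6% above counts single promoters rather than genes, so these shares cannot be compared.

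Adm was high in every MCL-like primary and low in every non-MCL primary. The MCL-like primaries, replicates 1 to 4, had 113, 149.6, 82.3 and 361 CPM. The Ccnd2 non-MCL primaries had 3.71, 3.30 and 15.3 CPM, and p53-only primaries ranged by library from 1.37 to 12.9 CPM with a median of 2.39 CPM. The lowest MCL-like primary therefore stood above the highest non-MCL primary, and the groups did not overlap. This is a description, since Adm was chosen for this difference. By mouse, Adm averaged 176 ± 126 CPM in MCL-like primaries (SD, n = 4), against 7.45 ± 6.84 CPM in Ccnd2 non-MCL primaries (n = 3) and 3.08 ± 2.09 CPM in p53-only primaries (n = 6). The log2 fold change of MCL-like over Ccnd2 non-MCL primaries was 4.60 (SE 0.74), and that over all 9 non-MCL mice was 5.29 (SE 0.54). Without the libraries named oTP, which held the highest non-MCL values, these were 5.68 and 5.97.

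**Figure D1:**
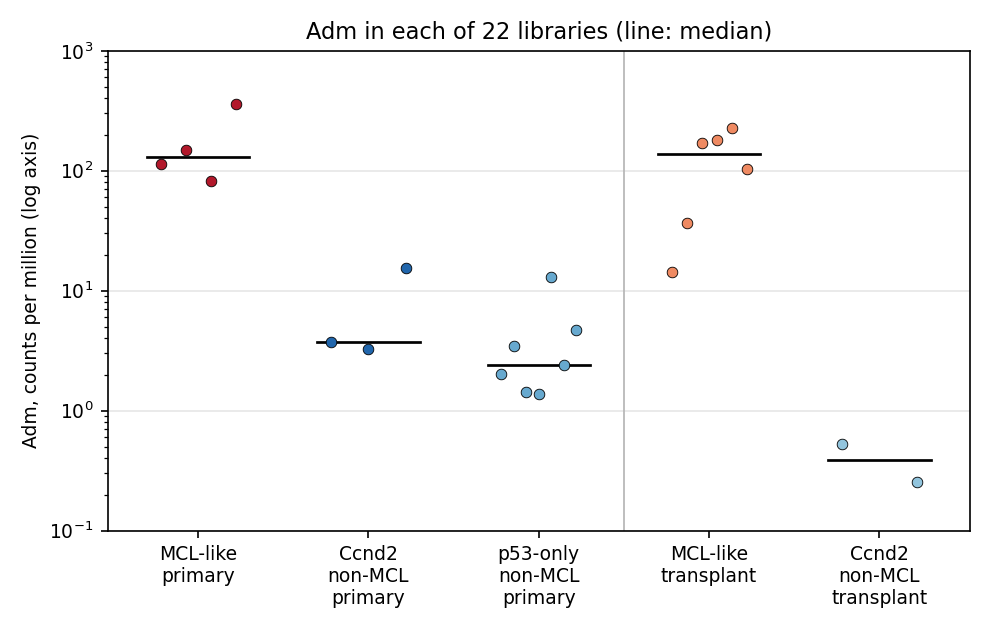
Adm in CPM, on a log axis, for each of 22 libraries in 5 groups; each point is a library and the line is the group's median. MCL-like primaries lie between 82.3 and 361 CPM and MCL-like transplants between 14.3 and 228 CPM, while non-MCL primaries lie between 1.37 and 15.3 CPM.

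Transplanted tumours kept the order seen in the primaries, but no test was possible there because the non-MCL transplants came from 1 mouse. The 6 MCL-like transplants had 14.3, 36.4, 171, 179.6, 228 and 104 CPM of Adm. The 2 Ccnd2 non-MCL transplants had 0.529 and 0.254 CPM, from 2 counts and 1 count, with exact Clopper-Pearson 95% intervals of 0.0641 to 1.91 CPM and 0.00643 to 1.42 CPM. These intervals cover counting error only. The lowest MCL-like transplant library, at 14.3 CPM (95% interval 11.0 to 18.2 CPM), fell inside the range of the non-MCL primaries.

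Over all 5 groups the order of the mean Adm level by mouse was MCL-like primaries, MCL-like transplants (133 ± 88.6 CPM, n = 4), Ccnd2 non-MCL primaries, p53-only primaries, and the Ccnd2 non-MCL transplants of 1 mouse (0.389 CPM). The ranges of the MCL-like transplants and primaries overlapped, and so did those of the 2 kinds of non-MCL primary. Between the Ccnd2 non-MCL and p53-only primaries, a contrast that did not serve to choose Adm, its log2 fold change was 1.20 (SE 0.58) and missed the threshold of 0.05 (adjusted p = 0.497). Without Ccnd2 non-MCL replicate 3 it was 0.14. In that contrast edgeR called 0% of 12967 genes; 1330 had an unadjusted p under 0.05 and DESeq2 called 119.

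In 3 mice the MCL-like primary and its transplant could be set side by side. Adm had 24.0 CPM in the transplants of the mouse of replicate 1, against 113 CPM in its primary. It had 104 CPM in the transplant of the mouse of replicate 2, against 149.6 CPM in its primary, and 175 CPM in the transplants of the mouse of replicate 4, against 361 CPM in its primary. Adm was lower in the transplant in 3 of 3 mice, at 0.212, 0.696 and 0.486 of the primary's level in unscaled CPM. The share of all genes lower in 3 of 3 mice was not computed, so this is a description. With mouse as a block its log2 fold change was -1.14 (SE 0.42; adjusted p = 0.820), which did not pass the test. Here edgeR called 0% of 12020 genes, with 656 at an unadjusted p under 0.05, while DESeq2 called 31.

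**Figure D2:**
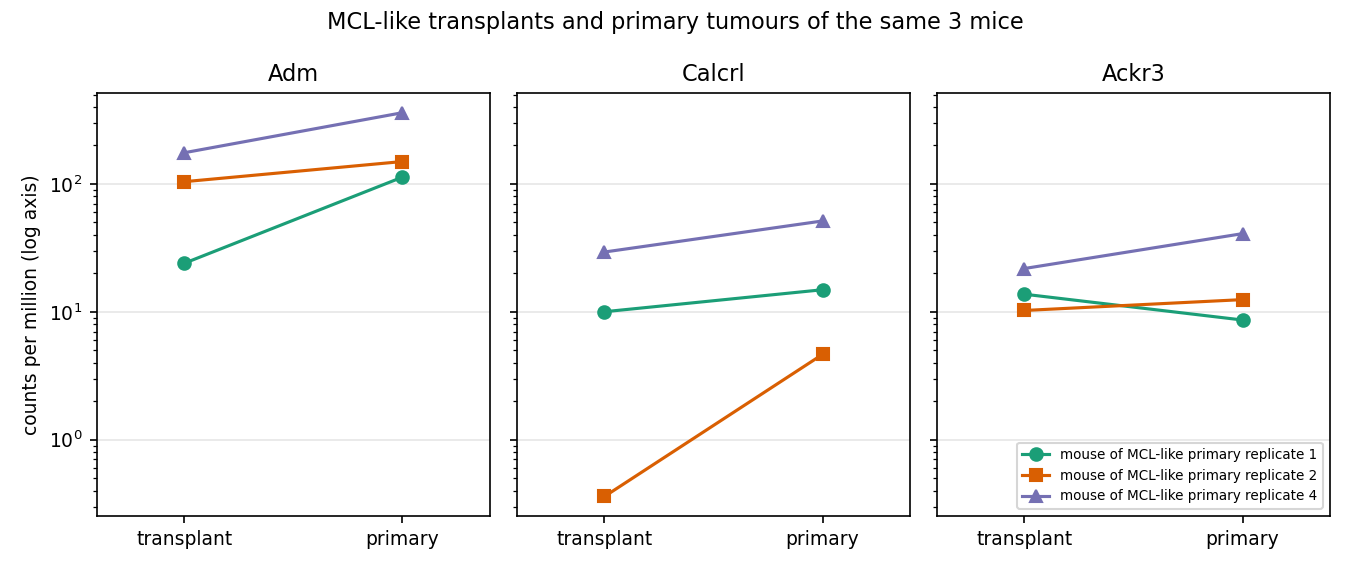
Adm, Calcrl and Ackr3 in CPM, on a log axis, in MCL-like transplants and primary tumours of the same 3 mice; a line joins the values of 1 mouse, and transplant libraries of a mouse were summed. Adm and Calcrl are lower in the transplant in each of the 3 mice, and Calcrl is lowest in the transplant of the mouse of replicate 2, at 0.359 CPM, against 4.64 CPM in its primary.

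Markers of other cell types are given beside Adm, because in tissue RNA fewer cells of a type and less RNA per cell cannot be told apart. The summed level of 11 T cell markers was 272 to 505 CPM in MCL-like primaries, against 46.4 to 95.4 CPM in Ccnd2 non-MCL and 18.3 to 573 CPM in p53-only primaries. That of 9 erythroid genes, with Klf1 and the haemoglobins, was 23411 to 111182 CPM in MCL-like primaries, against 3142 to 32406 CPM and 89.0 to 38658 CPM in those groups. The erythroid sums overlapped both non-MCL groups, and the T cell sums overlapped p53-only primaries. In both MCL-like comparisons 10 of 11 T cell and 9 of 9 erythroid markers had positive log2 fold changes. The edgeR fits called 0 of them, beside 0.308% and 5.52% of all genes. In the 2 MCL-like transplants from the mouse of replicate 1, T cell markers summed to 113 CPM in each library and erythroid genes to 118971 and 10846 CPM, with Adm at 14.3 and 36.4 CPM. In the other 4 MCL-like transplants T cell markers summed to 16.9 to 70.5 CPM and erythroid genes to 277 to 1598 CPM, with Adm at 104 to 228 CPM. Most of the T cell sum in the mouse of replicate 1 was Cd28, at 87.7 and 62.7 CPM in its transplants. In its primary Cd28 held 212 of 297 CPM. Cd3e had 0.879 and 4.52 CPM in these transplants, against 13.4, 16.7, 12.7 and 0.180 CPM in the other 4. Among MCL-like primaries Cd3e had 2.38 CPM in replicate 1 and 17.5 to 34.8 CPM in the others. The part of these cell types in the MCL-like differences, that of Adm included, was not tested. The 13 macrophage markers had 260 to 697 CPM in MCL-like primaries, 353 to 594 CPM in Ccnd2 non-MCL and 166 to 1256 CPM in p53-only primaries, so these ranges overlapped. For 10 neutrophil markers the sums were 106 to 988, 236 to 4344 and 16.8 to 4529 CPM in the same order of groups, and for 11 stromal markers they were 6.99 to 178, 9.82 to 162 and 8.93 to 169 CPM. Against Ccnd2 non-MCL primaries 9 of 9 tested neutrophil markers were negative (median -1.28, beside -0.04 over all genes). Against all non-MCL primaries 7 of 9 were negative (median -0.84, beside -0.13), and edgeR called 0 in either.

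No receptor gene passed the test of a difference between MCL-like and non-MCL primaries. Of the 4 receptor genes, Calcrl, Ramp1 and Ramp2 passed the low-count filter and Ramp3 did not. None was called in MCL-like against Ccnd2 non-MCL primaries, where edgeR called 0.308% of all 12967 genes, 0.0617% as higher and 0.247% as lower (8 and 32 genes; 2 and 31 when scaled by library size alone). None was called against all non-MCL primaries either, where 5.52% were called, 2.84% higher and 2.68% lower (368 and 348 genes; 400 and 287 with size factors of the DESeq2 type, 309 and 439 by library size alone). These comparisons share the 4 MCL-like mice, so they are not separate evidence.

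Calcrl, the receptor itself (chr2:84330626-84425411, minus strand), had 14.9, 4.64, 14.2 and 51.3 CPM in the MCL-like primaries. It had 14.5, 16.8 and 10.3 CPM in the Ccnd2 non-MCL primaries and 1.65 to 20.9 CPM, with a median of 3.59 CPM, in the p53-only primaries. The 3 groups overlapped, and MCL-like replicate 4, the library with the most Adm, was also the one with the most Calcrl. The log2 fold change was 0.65 (SE 0.82; adjusted p = 0.735) against Ccnd2 non-MCL primaries and 1.06 (SE 0.61; adjusted p = 0.292) against all non-MCL primaries. Without MCL-like replicate 4 the comparison with Ccnd2 non-MCL mice gave -0.05. Between Ccnd2 non-MCL and p53-only primaries it was 0.67 (adjusted p = 0.773).

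In the transplants Calcrl had 12.1, 7.34, 28.5, 30.2, 23.2 and 0.359 CPM in the MCL-like libraries and 3.97 and 3.81 CPM in the Ccnd2 non-MCL libraries. The last MCL-like value rests on 2 counts, in a library with 104 CPM of Adm. Relative to its primary, Calcrl stood at 0.673, 0.0774 and 0.572 in the transplants of the mice of replicates 1, 2 and 4. It was thus lower in 3 of 3 mice, again without the share of all genes, which was not computed. In the blocked fit the log2 fold change was -1.17 (SE 0.57; adjusted p = 0.820).

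Ramp1, the partner that turns Calcrl into the CGRP receptor (chr1:91179822-91225196, plus strand), was low in the MCL-like primaries, with 0.595, 2.32, 0.95 and 3.76 CPM. The Ccnd2 non-MCL primaries had 0.743, 121 and 3.56 CPM, and the p53-only primaries 0.599 to 7.61 CPM with a median of 3.8 CPM. A single library, Ccnd2 non-MCL replicate 2 from the spleen, held 121 CPM, and no other of the 22 libraries exceeded 7.61 CPM. The log2 fold change against Ccnd2 non-MCL primaries was -4.38 (SE 1.3; adjusted p = 0.123) and was -0.10 (adjusted p = 0.977) without that mouse. It was called only without the libraries named oTP (-4.90; adjusted p = 0.0480), a fit in which replicate 2 is 1 of 2 remaining Ccnd2 non-MCL mice. Against all non-MCL primaries it was -3.08 (SE 1.41; adjusted p = 0.188), or -0.96 without replicate 2. For Ccnd2 non-MCL over p53-only primaries it was 3.18 (adjusted p = 0.380), and -1.07 without replicate 2.

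In the MCL-like transplants Ramp1 lay between 0.220 and 1.03 CPM, and in the Ccnd2 non-MCL transplants it was at 0 and 0.762 CPM. The count of 0 allows up to 0.794 CPM, taken as 3 counts of the library total, so no difference between the transplants was detectable at this depth. Ramp1 did not pass the filter in the fit of transplants against primaries.

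Ramp2 and Ramp3, the partners that make Calcrl an adrenomedullin receptor, were near the limit of detection in most libraries. Ramp2 (chr11:101246028-101259546, plus strand) had 0.595, 4.01, 0.317 and 0.269 CPM in the MCL-like primaries, from 23 counts in all. It had 0.743, 3.00 and 3.31 CPM in the Ccnd2 non-MCL primaries and 0 to 2.34 CPM, with a median of 0.681 CPM, in the p53-only primaries. The groups overlapped, and the log2 fold change came to -0.66 (SE 1.13; adjusted p = 0.815) against Ccnd2 non-MCL and -0.04 (SE 0.93; adjusted p = 0.983) against all non-MCL primaries. Between Ccnd2 non-MCL and p53-only primaries it was 1.07 (adjusted p = 0.730). Ramp2 overlaps Vps25 on the same strand, and reads of the overlap could fall to either gene; Vps25 held at most 1.64 CPM in any library.

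Ramp3 (chr11:6658521-6677475, plus strand) had 0, 0.422, 0 and 0 CPM in the MCL-like primaries, a total of 2 counts, and the 3 libraries at 0 allow up to 0.892, 0.95 and 0.806 CPM, again as 3 counts of each total. It had 0, 1.5 and 0.982 CPM in the Ccnd2 non-MCL primaries and 0.399 to 5.76 CPM, with a median of 0.824 CPM, in the p53-only primaries. Of the MCL-like primaries 1 of 4 held Ramp3 counts, against every p53-only library, but the gene was too low to be tested.

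Ramp2 and Ramp3 were highest in the same MCL-like transplants. Ramp2 had 4.39, 4.52, 0, 0, 0 and 0.180 CPM in the 6 MCL-like transplants, and Ramp3 had 1.10, 0.565, 0, 0, 0 and 0 CPM. The Ccnd2 non-MCL transplants had 2.65 and 1.52 CPM of Ramp2 and 2.65 and 4.57 CPM of Ramp3. The 2 MCL-like libraries with both partners came from the mouse of replicate 1, and they also held the most Kdr, an endothelial receptor (25.7 and 18.4 CPM, against 0.180 to 2.23 CPM in the other 4). The summed level of 16 endothelial markers was 213 and 188 CPM in these libraries and 77.2 to 106 CPM in the other 4, where up to 9 of the 16 markers were at 0. Sums of 4 lymphatic endothelial markers (45.0 and 66.4 CPM, against 0 to 0.899 CPM) and of 11 stromal markers (133 and 90.1 CPM, against 2.06 to 21.0 CPM) set the same 2 libraries apart. The part of these cell types in the Ramp2 and Ramp3 values was not tested. Calcrl had 12.1 and 7.34 CPM in those libraries, against 23.2 to 30.2 CPM in 3 of the other 4 and 0.359 CPM in the last.

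Among primaries, the endothelial sum was 97.5 to 313 CPM in MCL-like, 273 to 514 CPM in Ccnd2 non-MCL and 132 to 392 CPM in p53-only tumours. Most of it was Pecam1, which B cells also express. Cdh5, specific to endothelium, had 1.27 to 4.43, 1.72 to 4.50 and 0.288 to 3.89 CPM in the same order, and these ranges overlapped. Against Ccnd2 non-MCL primaries 10 of 11 tested endothelial markers were negative in MCL-like primaries (median -1.305, beside -0.04 over all genes). Against all non-MCL primaries 7 of 11 were negative (median -0.50, beside -0.13). For Ccnd2 non-MCL over p53-only primaries 11 of 11 were positive (median 1.695, beside -0.04). The edgeR fits called 0 of these markers.

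**Figure D3:**
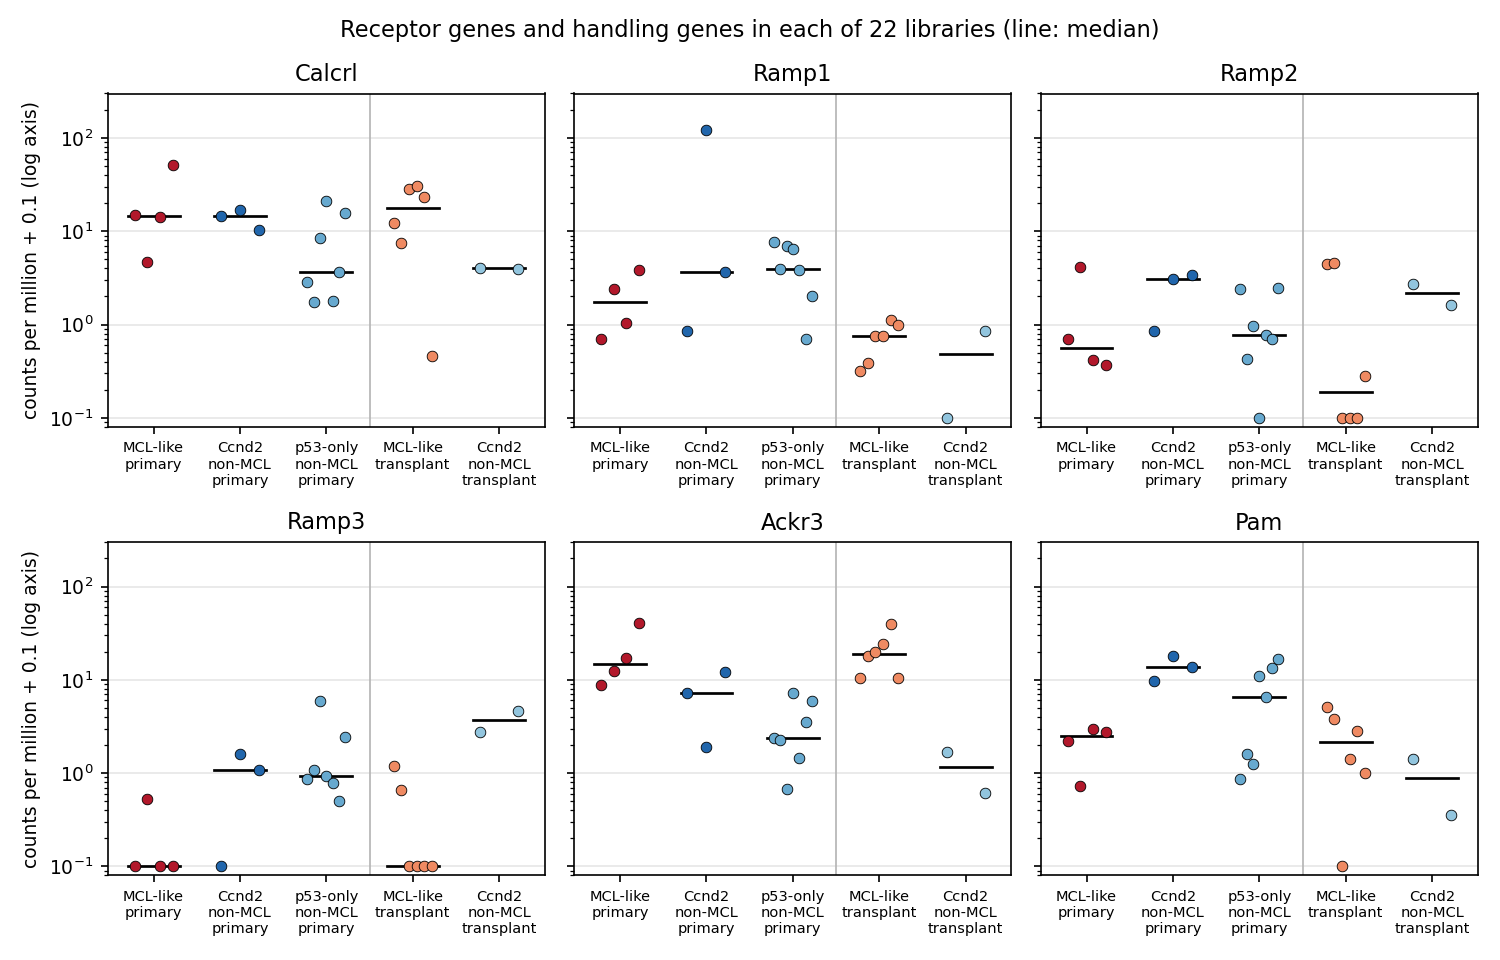
Calcrl, Ramp1, Ramp2, Ramp3, Ackr3 and Pam in each of 22 libraries in CPM plus 0.1, on a log axis; points are libraries and lines are group medians. Calcrl and the Ramp genes overlap between MCL-like and non-MCL primaries, Ramp1 has 1 library at 121 CPM, and 3 of 4 MCL-like primaries have no Ramp3 counts.

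Other genes of the calcitonin peptide family were taken from a list of 12, of which 5 passed the filter. The related ligands were absent or nearly so: Adm2 (adrenomedullin 2) and Iapp (amylin) had no counts in any library, Calca and Calcb, the CGRP genes, had 5 counts and 1 count in all, and the calcitonin receptor Calcr had 1. Ackr3, an atypical chemokine receptor that also takes up adrenomedullin, was the 1 called gene among the 5, in the comparison with all non-MCL primaries, where 5.52% of all genes were called. It had 8.62, 12.4, 17.1 and 40.8 CPM in the MCL-like primaries, against 7.05, 1.80 and 12.2 CPM in the Ccnd2 non-MCL primaries and 0.576 to 7.14 CPM, with a median of 2.28 CPM, in the p53-only primaries. Each MCL-like library was above each p53-only library, but the MCL-like and Ccnd2 non-MCL libraries overlapped. How many of all genes separate the MCL-like from the p53-only libraries was not computed.

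Ackr3 rose by 2.12 in log2 units in MCL-like against all non-MCL primaries (SE 0.58; adjusted p = 0.0453), and the call was lost in 13 of 19 alternative fits, among them each that left out an MCL-like mouse. Against Ccnd2 non-MCL primaries it was 1.55 (SE 0.77; adjusted p = 0.331). The MCL-like transplants held 10.3, 18.1, 19.7, 23.9, 39.3 and 10.2 CPM and the Ccnd2 non-MCL transplants 1.59 and 0.508 CPM. Transplants and primaries of the same mice differed by -0.08 (SE 0.37; adjusted p = 0.960).

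Pam, the enzyme that amidates adrenomedullin and so completes the active peptide, had 2.08, 0.633, 2.85 and 2.69 CPM in MCL-like primaries, against 9.65, 18.0 and 13.6 CPM in Ccnd2 non-MCL primaries. In p53-only primaries it ran by mouse from 0.761 to 16.7 CPM with a median of 7.05 CPM. MCL-like and Ccnd2 non-MCL primaries did not overlap for Pam, but the share of all genes without overlap was not computed. Their log2 difference, -2.62 (SE 0.91, adjusted p = 0.163), did not pass. Nor did the value of -2.12 (SE 0.80, adjusted p = 0.115) against all non-MCL primaries. Crcp, a cytoplasmic component of CGRP receptor signalling, stood at -0.82 in log2 units (adjusted p = 0.164) in that comparison, and Ece1 had -0.24.

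Downstream of Calcrl, 31 of 37 genes of cyclic AMP signalling were tested. Against all non-MCL primaries 2 of them were called higher and 0 lower, beside 2.84% and 2.68% of all genes, with 16 positive and 15 negative log2 fold changes and a median of 0.29, beside -0.13 over all genes. Both called genes encode receptor kinases that switch off G protein-coupled receptors. Grk5 had 37.5, 4.22, 13.9 and 11.0 CPM in MCL-like primaries, against 5.20, 0.600 and 6.63 CPM in Ccnd2 non-MCL primaries and, by mouse, 0.399 to 5.06 CPM in p53-only primaries. Its log2 fold change was 2.59 (SE 0.70; adjusted p = 0.0433), and the call was lost in 11 of 19 alternatives.

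Grk6 had 104, 176, 158 and 216 CPM in MCL-like primaries, against 69.4, 112 and 119.7 CPM in Ccnd2 non-MCL and, by mouse, 80.7 to 127 CPM in p53-only primaries. It rose by 0.78 in log2 units (SE 0.21; adjusted p = 0.0456), a call lost in 12 of 19 alternatives. Grk2, another kinase of the family, had -1.21 (adjusted p = 0.0597), and the phosphodiesterase Pde7a, which breaks down cyclic AMP, had 1.17 (adjusted p = 0.0587). Gnas, which encodes the stimulatory G protein subunit, had 0.50 (adjusted p = 0.567). Against Ccnd2 non-MCL primaries no gene of this list was called, and 17 of 31 log2 fold changes were positive (median 0.08, beside -0.04 over all genes).

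In the main edgeR fits no listed gene that responds to low oxygen was called higher in MCL-like primaries. With at most 2.84% of all genes called higher, that count says little about the list. Of 52 listed HIF target genes, 44 were tested, and against all non-MCL primaries 0 were called higher and 2 lower, beside the 2.84% and 2.68% of all genes. Of the 44 log2 fold changes 11 were positive and 33 negative, with a median of -0.61 beside -0.13 over all genes, of which 43.9% were positive. The median was -0.61 for both the 24 tested targets outside glycolysis and the 20 tested targets of glycolysis. Against Ccnd2 non-MCL primaries none of the 44 was called, 15 were positive and 29 negative, and the median was -0.34 beside -0.04 over all genes. In that comparison 1 target was called higher and 4 lower without the libraries named oTP, a fit that called 552 genes in all. DESeq2, with 847 genes called, had 3 lower, and the fit of only the 2 groups, with 371, had 1 lower.

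The 2 called targets were Bnip3 and Gbe1. Bnip3, which directs mitochondria to breakdown under hypoxia, had 2.68, 1.06, 0.317 and 0.269 CPM in MCL-like primaries, against 71.3, 2.10 and 8.35 CPM in Ccnd2 non-MCL primaries and, by mouse, 2.88 to 43.9 CPM with a median of 14.0 CPM in p53-only primaries. Only Ccnd2 non-MCL replicate 2 reached into the MCL-like range. Bnip3 fell by 4.04 in log2 units (SE 1.10; adjusted p = 0.0455), and had -4.47 (SE 1.23; adjusted p = 0.105) against Ccnd2 non-MCL primaries.

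Gbe1, the glycogen branching enzyme, had 7.73, 2.74, 5.70 and 11.6 CPM in MCL-like primaries, against 30.8, 32.7 and 22.7 CPM in Ccnd2 non-MCL primaries and, by mouse, 12.4 to 108 CPM in p53-only primaries. By mouse the MCL-like range lay below the whole non-MCL range. The share of all genes whose ranges separate in this way was not computed, so this is a description. Gbe1 fell by 2.23 in log2 units (SE 0.57; adjusted p = 0.0369), and had -1.96 (SE 0.66; adjusted p = 0.154) against Ccnd2 non-MCL primaries. The call was lost in 12 of 19 alternatives for Bnip3 and in 7 of 19 for Gbe1, in each gene among them every fit without 1 of the MCL-like mice.

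Vegfa and Slc2a1, among the best known HIF targets, did not pass edgeR's test. Vegfa, the vessel growth factor, had 7.73, 3.38, 5.38 and 9.94 CPM in MCL-like primaries, against 66.8, 52.5 and 14.4 CPM in Ccnd2 non-MCL primaries, and p53-only libraries ran from 3.30 to 165 CPM. Its log2 fold change was -2.45 (SE 0.90; adjusted p = 0.109) against all non-MCL and -2.67 (SE 1.06; adjusted p = 0.218) against Ccnd2 non-MCL primaries; the second passed without the libraries named oTP (-3.08; adjusted p = 0.0147) and with only the 2 groups in the fit (adjusted p = 0.0383), and the first by DESeq2 (adjusted p = 0.0182). Slc2a1, the glucose transporter Glut1, had 18.7, 11.8, 19.6 and 44.3 CPM in MCL-like primaries, against 10.02, 11.7 and 10.6 CPM in Ccnd2 non-MCL primaries. Its values of 0.81 (SE 0.32, adjusted p = 0.137) against all non-MCL and 1.21 (SE 0.42, adjusted p = 0.165) against Ccnd2 non-MCL primaries were positive. Of the 44 tested targets 11 and 15 were positive in these comparisons. For Vegfa, and narrowly for Slc2a1 (11.8 against 11.7 CPM), MCL-like and Ccnd2 non-MCL primaries did not overlap. The share of all genes without overlap was not computed.

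Other named targets missed the threshold against all non-MCL primaries. Pfkfb4 (1.39, adjusted p = 0.165), Hk1 (0.88, adjusted p = 0.138) and Ddit4 (0.44, adjusted p = 0.620) had positive values. Pdk1 (-1.11), P4ha1 (-1.02), Fam162a (-0.80) and Anln (-0.73) had negative values. Further negative values belonged to 6 genes. They were Egln3, a HIF prolyl hydroxylase (-4.70, adjusted p = 0.0833), Plod2, a collagen lysyl hydroxylase (-2.81, adjusted p = 0.109), and Higd1a of the mitochondria (-1.06, adjusted p = 0.0869). Among glycolytic enzymes they were Pgk1 (-2.45, adjusted p = 0.128), Ldha (-1.22, adjusted p = 0.0971) and Pkm (-1.16, adjusted p = 0.0584). DESeq2 called each of these 6 genes lower in that comparison, with adjusted p from 0.00411 (Egln3) to 0.0478 (Ldha). It called 1750 genes there in all, against 716 by edgeR. Plod2, Higd1a and Pkm were named for their low adjusted p in the edgeR fits, so the 6 calls say little about the list. Against Ccnd2 non-MCL primaries edgeR called none of them. There the values were -1.82 for Egln3, -3.40 for Plod2, -0.69 for Higd1a, -0.61 for Pgk1, -0.84 for Ldha and -1.39 for Pkm. For Ccnd2 non-MCL over p53-only primaries Egln3 had -3.40, Pgk1 -2.28, Ldha -0.54 and Higd1a -0.52, while Pkm (0.34) and Plod2 were positive. Over 19 alternatives Pgk1 against all non-MCL primaries ran from -2.99 to -0.81. Egln3 was near the limit of detection in the MCL-like primaries, at 0, 0.633, 0.317 and 0.269 CPM, against 1.11, 0.300 and 2.33 CPM in Ccnd2 non-MCL primaries and up to 55.9 CPM by mouse in p53-only primaries. Ddit4, a stress-induced inhibitor of growth signalling, had 357, 104, 141 and 144 CPM in MCL-like primaries, against 356, 79.7 and 113 CPM in Ccnd2 non-MCL primaries, and these overlapped.

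Of 9 listed regulators of HIF 7 were tested and none was called against all non-MCL primaries, beside 5.52% of all genes, so the count says little about the list. Hif1a, whose protein rather than RNA is chiefly controlled by oxygen, had 19.6, 43.7, 37.0 and 26.9 CPM in MCL-like primaries, against 52.3, 30.3 and 52.2 CPM in Ccnd2 non-MCL primaries and, by mouse, 33.7 to 89.4 CPM in p53-only primaries. Its log2 fold change was -0.61 (SE 0.29; adjusted p = 0.205) against all non-MCL primaries. Epas1, the second HIF alpha gene and one that is strong in endothelium, was at 0.633 to 2.15 CPM in MCL-like primaries, against 1.86 to 4.91 CPM in Ccnd2 non-MCL primaries. Egln1, the main oxygen-sensing hydroxylase, had -1.18 (adjusted p = 0.0980).

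In MCL-like transplants against primaries of the same mice 0 of 39 tested hypoxia targets were called, as were 0% of all 12020 genes, with 19 positive and 20 negative values and a median of -0.09 beside 0.01 over all genes. Across the 13 primary mice, Pearson's r with Adm on the log2 scale ran from -0.78 to 0.70 among the 44 targets, with a median of -0.32, beside -0.04 over all genes tested. The highest belonged to Pfkfb4, a regulator of glycolysis, at 12.2, 13.9, 8.23 and 11.0 CPM in MCL-like primaries, against 1.11, 0.600 and 13.5 CPM in Ccnd2 non-MCL primaries. For Calcrl r was 0.38 and for Ackr3 0.82. These r values are descriptions, since the points fall into an MCL-like and a non-MCL cluster and share libraries.

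**Figure D4:**
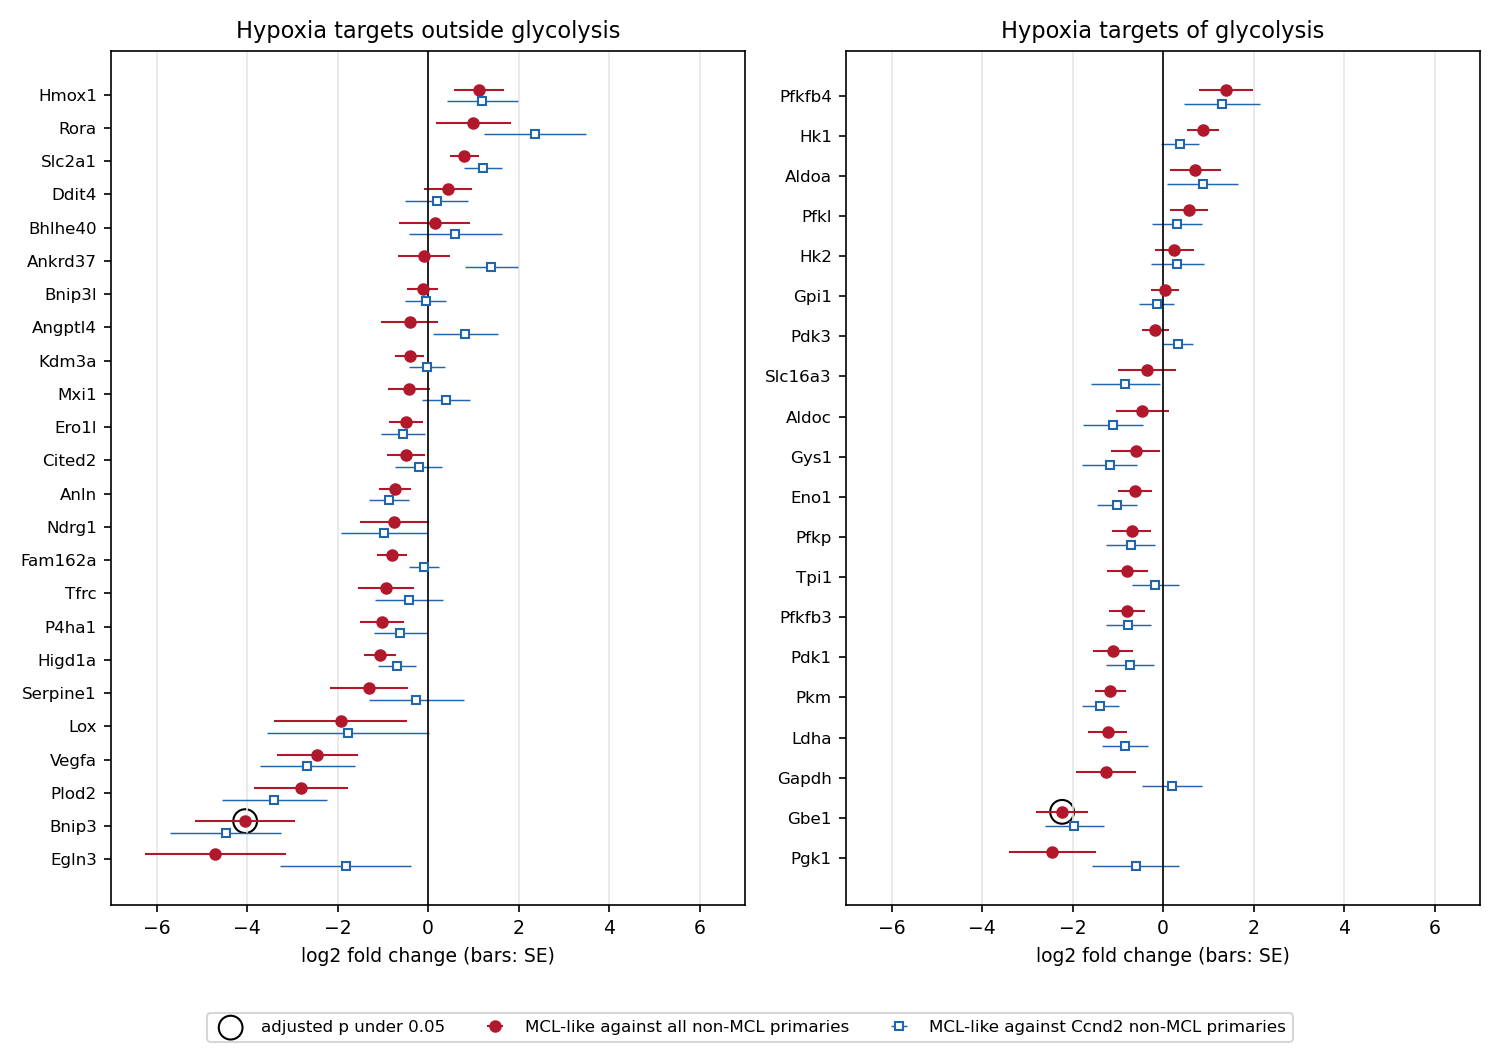
Log2 fold changes with SE of 24 hypoxia targets outside glycolysis and 20 of glycolysis, for MCL-like against all non-MCL primaries (filled circles) and against Ccnd2 non-MCL primaries (open squares); black rings mark an adjusted p under 0.05. Of the filled circles 33 of 44 lie below 0, and the ringed genes are Bnip3 and Gbe1.

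The genes whose levels were most like that of Adm came from outside the receptor and hypoxia lists. They were the 8 with the highest r with Adm over 13 primary mice among 9119 genes with an ordinary symbol and at least 10 CPM on average in a primary group: Fcrl5, Neurod4, Ackr2, Fras1, Sox5, Cyp11a1, S1pr3 and Nrp2, with r from 0.96 to 0.93. The ninth gene had 0.93 as well, so the line drawn after the eighth is arbitrary. Because Adm marks the MCL-like label, a high r chiefly says that a gene separates MCL-like from non-MCL tumours. Fcrl5, a surface protein of B cells related to Fc receptors, had 13.4, 22.4, 26.6 and 123 CPM in MCL-like primaries, against 1.11, 0.600 and 5.16 CPM in Ccnd2 non-MCL primaries and at most 5.79 CPM in p53-only primaries. Like Adm it was highest in MCL-like replicate 4.

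Ackr2, a scavenging chemokine receptor, ran from 7.14 to 38.4 CPM in MCL-like primaries, against 0 to 5.65 CPM in Ccnd2 non-MCL and 0 to 0.341 CPM in p53-only primaries. Cyp11a1, which starts steroid synthesis, had 8.62 to 52.1 CPM in MCL-like primaries, against 0.300 to 5.40 CPM and 0 to 2.02 CPM. Nrp2, a co-receptor of semaphorins and vascular endothelial growth factors, had 48.7 to 228 CPM in MCL-like primaries, against 2.70 to 29.2 CPM and 0.761 to 13.3 CPM. None of these 3 ranges in MCL-like primaries overlapped those of the non-MCL primaries. The choice of these genes by r with Adm in the same mice favours such a gap, so it is a description only.

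Of 20 other protein-coding genes whose start lies within 1 Mb of that of Adm, 16 were tested, and edgeR called none in either comparison, beside 0.308% of all genes against Ccnd2 non-MCL and 5.52% against all non-MCL primaries. Swap70, a signalling protein of activated B cells, had 104, 147, 144 and 254 CPM in MCL-like primaries, against 20.4, 29.1 and 40.6 CPM in Ccnd2 non-MCL primaries, but 23.0 to 218 CPM by library in p53-only primaries. Its log2 fold change was 2.52 (SE 0.74; adjusted p = 0.120) against Ccnd2 non-MCL and 1.69 (SE 0.54; adjusted p = 0.0743) against all non-MCL primaries. Some alternative fits did call Swap70. Against Ccnd2 non-MCL primaries these were 4 of 20, with DESeq2 (adjusted p = 0.00808), only the 2 groups in the fit (0.0120), no libraries named oTP (0.0382) or no p53-only mouse of replicates 2 and 5 (0.0330). Against all non-MCL primaries they were 2 of 19, with DESeq2 (adjusted p = 0.0210) or without that mouse (0.00332). Sbf2, whose start is the nearest, had 1.17 (adjusted p = 0.210) against all non-MCL primaries. The antisense gene Gm28863, which overlaps Adm, had 0 counts in all libraries.

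**Figure D5:**
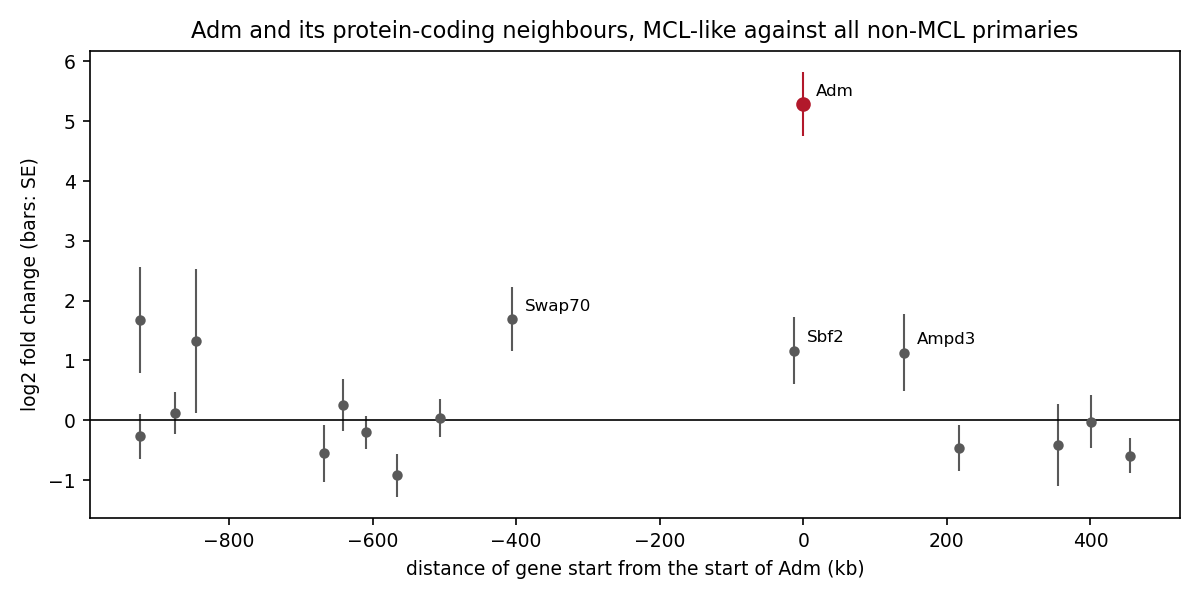
Log2 fold change with SE of Adm and 16 tested protein-coding genes around it, for MCL-like against all non-MCL primaries, by distance of the gene's start from the start of Adm in kb. Adm stands at 5.29 and the highest neighbour, Swap70, at 1.69.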

How the data were processed

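Per the labels' protocols, RNA of fresh lymphoma cells was sequenced from the 3' end of messenger RNA with the QuantSeq kit, so a level is not divided by transcript length. Per the submitters' processing notes, FastQC and STAR were used with the build GRCm38; of versions, counter, strand setting and annotation the sources used here say nothing. The deposited table holds unnormalized counts for each gene and library. Symbols came from GENCODE M21 (52489 of 52636 identifiers matched), promoters from a RefSeq table.

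Levels are unscaled CPM computed here. Libraries of a mouse were summed for tests: 2 of a p53-only mouse, and transplants by donor mouse, which the mouse id label names. Tests were quasi-likelihood F tests of edgeR 4.0.16 (R 4.3.3) with TMM scaling, its default low-count filter, robust shrinkage and Benjamini-Hochberg adjustment over all genes tested; genes below 0.05 count as called. A model of 3 groups over 13 primary mice served MCL-like against Ccnd2 non-MCL (4 and 3 mice) and Ccnd2 non-MCL against p53-only (3 and 6 mice), and a model of 2 groups served MCL-like against all non-MCL (4 and 9 mice). Transplants and primaries of 3 mice were fitted with mouse as a block. The SE was derived as log2 fold change over root F. No p is given for Adm in the MCL-like contrasts that chose it. The procedure was tested on simulated counts. DESeq2 1.42.0, other scalings, no filter, leaving out each mouse and leaving out the libraries named oTP were alternatives.

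Members and lists were chosen with earlier results of these data known. Named genes are the members and a set list of ligand, handling and hypoxia genes. Added to these were up to 5 further genes of each list by lowest adjusted p. The 8 genes most like Adm by Pearson's r of log2(TMM-scaled CPM + 1) and neighbours within 1 Mb were named too. The calcitonin ligands, Pfkfb4's r, Kdr, Cdh5, Pecam1, Cd28 and Cd3e were named after their values were seen.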

Additional observations from a re-analysis of the deposited data

Results flagged for a closer look

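A search for a mouse that stands far from the others of its group used Dixon's test at the 95% level in groups of 4 to 6 mice. It covered 54 groups and picked out 10. Chance picks about 5% of groups only where values are normally distributed, which CPM near 0 are not. Where all other mice are at 0, any count at all is picked out. The 10 therefore cannot be set against that share. Ramp2 in MCL-like primaries was 4.01 CPM in replicate 2, with the other 3 mice at 0.269 to 0.595 CPM. Ramp2 in MCL-like transplants was 4.45 CPM in the mouse of replicate 1, with the others at 0 to 0.180 CPM. Ramp3 was 0.422 CPM in replicate 2 of the MCL-like primaries and 0.865 CPM in the transplants of the mouse of replicate 1, with 0 in the other mice of each group; the first of these rests on 2 counts. Ramp3 in p53-only primaries was 5.76 CPM in replicate 3, with the others at 0.399 to 2.34 CPM.

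Among hypoxia genes, Vegfa in p53-only primaries was 165.5 CPM in replicate 7, with the others at 5.12 to 17.4 CPM. Egln3 in p53-only primaries was 55.9 CPM in the mouse of replicates 2 and 5, with the others at 0.584 to 10.4 CPM. Ddit4 in MCL-like primaries was 357 CPM in replicate 1, the mesenteric tumour, with the others at 104 to 144 CPM. In MCL-like transplants the mouse of replicate 1 had 105 CPM of Ldha, with the others at 267 to 299 CPM, and 6.30 CPM of Epas1, with the others at 0 to 0.858 CPM. Of the 10 values 4 belong to transplants of the mouse of replicate 1, and their cause was not tested.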

How the results depend on the processing

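The direction of Adm in the MCL-like contrasts held in all alternatives run, with log2 fold changes of 4.18 to 5.71 against Ccnd2 non-MCL and 4.88 to 5.82 against all non-MCL primaries when 1 mouse was left out, and 5.68 and 5.97 without the libraries named oTP; the lowest values came without MCL-like replicate 4. Counts of calls moved far more, and their causes were not tested. Against Ccnd2 non-MCL primaries, 40 genes were called, with 22 under size factors of the DESeq2 type, 847 by DESeq2, 13 with each library as its own sample, 552 without the libraries named oTP, 371 with only the 2 groups in the fit, and 0 to 54 without 1 mouse. Against all non-MCL primaries, 716 were called, with 1750 by DESeq2, 248 without the libraries named oTP and 176 to 1091 without 1 mouse; hypoxia targets called lower were 2, with 9 by DESeq2, 1 without a filter, 1 without the libraries named oTP and 0 to 3 without 1 mouse. Between Ccnd2 non-MCL and p53-only primaries, 0 were called, with 119 by DESeq2, 2 without a filter, 116 without the libraries named oTP and 0 to 8 without 1 mouse. Ramp2 against all non-MCL primaries changed sign, at 0.015 under size factors of the DESeq2 type, 0.0077 by DESeq2, 0.041 with each library as its own sample, 0.020 without the libraries named oTP and -0.15 to 0.37 without 1 mouse. Calcrl against Ccnd2 non-MCL ranged from -0.050 to 0.98 without 1 mouse, Ramp1 between Ccnd2 non-MCL and p53-only from -1.07 to 3.75, and Ackr3 between transplants and primaries from -0.43 to 0.17 (0.0034 without the mouse of replicate 2). Library size scaling moved the median of all genes against Ccnd2 non-MCL primaries to -0.16, beside -0.04, and that of transplants against primaries to -0.10, beside 0.01.

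The pairing of transplants and primaries comes from the mouse id label. Leaving out the mouse block called 0 genes, as did the blocked fit, and gave Adm -0.85; DESeq2 called 31, no filter 35, and leaving out 1 mouse 0 to 14. With 3 mice, and 1 donor mouse for the non-MCL transplants, small differences there are beyond these data. Ramp2, Ramp3 and Egln3 rest on few counts, so their differences at this depth are uncertain.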

Other observations

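Libraries of the same mouse came from separate samples or hosts, and Adm is given here for each with an interval that covers counting error only, not the spread between such samples. The 2 libraries of 1 p53-only mouse had 3.47 CPM (exact 95% interval 2.15 to 5.30 CPM) and 12.9 CPM (9.16 to 17.8 CPM); the first is labelled spleen and the second lymphoma. The 2 MCL-like transplants of the mouse of replicate 1 had 14.3 CPM (11.0 to 18.2 CPM) and 36.4 CPM (30.4 to 43.3 CPM), in 2 NSG hosts. The erythroid sums of these transplants were 118971 and 10846 CPM in that order. The 2 transplants of the mouse of replicate 4 had 171 CPM (157 to 186 CPM) and 179.6 CPM (165 to 195 CPM), so their intervals overlapped.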
